A study of Homo sapiens with 6 samples.

Results

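The genes described here are 10 writers, erasers and readers of N6-methyladenosine (m6A): METTL3, METTL14, WTAP, VIRMA, RBM15, ALKBH5, FTO, YTHDF2, YTHDC1 and IGF2BP2. They were chosen by symbol from a table of 31966 genes, and each symbol had 1 row. All libraries were made from Kasumi-1 cells, a long-used line from acute myeloid leukaemia (AML) with the RUNX1-RUNX1T1 fusion. In 3 libraries (shLUC, the control) the cells carried a doxycycline-inducible hairpin RNA against luciferase, and in 3 (shFBL, the knockdown) one against FBL, which encodes fibrillarin, the 2'-O-methyltransferase of ribosomal RNA. Cells of both groups received doxycycline, 100 ng/ml over 72 h. The labels name 1 line and 1 hairpin per group. They leave it unsaid if the replicates were grown as separate cultures, and the p-values below therefore describe library-to-library spread that may be technical.

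m6A is the most common internal modification of messenger RNA. A nuclear writer complex adds it: METTL3 is the catalytic subunit, METTL14 its partner that holds the RNA, and WTAP, VIRMA and RBM15 place the complex on its targets. ALKBH5 and FTO are demethylases, called erasers. Proteins with a YTH domain read the mark: YTHDF2 brings cytoplasmic transcripts to decay and YTHDC1 acts in the nucleus, while IGF2BP2 belongs to a family that stabilises marked transcripts. In AML several of these proteins, METTL3, METTL14, FTO, ALKBH5 and YTHDF2 among them, are known as dependencies of leukaemia cells.

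Stretches upstream of RefSeq starts are shown for 3 of these genes. They were taken because METTL3 had the largest fall of the 10, METTL14 encodes its partner and ALKBH5 was the gene that rose. They are RefSeq promoter sequences on GRCh38.p14, shortened so that they hold no GENCODE exon of the gene. Capitals mark the ETS core CCGGAA or its reverse complement TTCCGG, and the NRF1 core GCGCATGC or its reverse complement GCATGCGC. The METTL3 stretch is chr14:21511376-21511590 (minus strand), that of METTL14 chr4:118685142-118685367 (plus strand) and that of ALKBH5 chr17:18183578-18183827 (plus strand). The ALKBH5 stretch lies inside the GENCODE span of the gene, which starts at 18183078, and is upstream of the RefSeq start alone.
METTL3: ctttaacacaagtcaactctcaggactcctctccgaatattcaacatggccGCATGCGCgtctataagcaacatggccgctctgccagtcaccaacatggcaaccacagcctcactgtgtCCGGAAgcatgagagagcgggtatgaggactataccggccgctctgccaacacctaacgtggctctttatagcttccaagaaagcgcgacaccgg
METTL14: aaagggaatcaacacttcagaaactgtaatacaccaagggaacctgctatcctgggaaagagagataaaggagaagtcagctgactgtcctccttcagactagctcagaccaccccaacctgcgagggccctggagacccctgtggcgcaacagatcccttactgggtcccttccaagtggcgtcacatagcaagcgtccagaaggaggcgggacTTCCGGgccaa
ALKBH5: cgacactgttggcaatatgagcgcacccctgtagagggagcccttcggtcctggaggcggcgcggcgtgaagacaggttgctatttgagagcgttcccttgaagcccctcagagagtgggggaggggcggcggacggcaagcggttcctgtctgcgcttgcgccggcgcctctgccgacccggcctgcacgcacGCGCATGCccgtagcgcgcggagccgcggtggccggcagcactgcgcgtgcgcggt

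In the 250 bases before the RefSeq start, METTL3 and METTL14 each held 2 copies of the ETS core, counted on both strands. The second copy of each lies in the bases not shown. Like that of ALKBH5, the windows of RBM15, WTAP and FTO and promoter 2 of YTHDF2 and IGF2BP2 lie inside the GENCODE spans of their genes. Of 35116 RefSeq promoters 14.5% held at least 1 copy in the same window. METTL3 and ALKBH5 each held 1 copy of the NRF1 core, which 2.63% of promoters held. RBM15 held the E-box CACGTG (6.34% of promoters). The other 5 matched genes (WTAP, FTO, YTHDF2, YTHDC1 and IGF2BP2) held none of the ETS, NRF1 or E-box letters. The CCAAT box (32.0% of promoters), GC box GGGCGG (42.6%) and TATA box TATAAA (10.7%) were also searched and are unmarked above. METTL14, WTAP, RBM15, YTHDF2 and IGF2BP2 held the CCAAT box. WTAP, RBM15, ALKBH5, YTHDF2, YTHDC1 and IGF2BP2 held the GC box, and METTL3 and IGF2BP2 the TATA box. WTAP, YTHDF2 and IGF2BP2 had 2 promoters each. A match to letters is a description of the sequence and not a binding site.

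FBL fell from 558 ± 19.6 to 43.8 ± 10.8 CPM (counts scaled for library depth by edgeR; SD, n = 3 each), so every library matched its label. Total counts ran from 85556322 to 103148412 per library. The genes CD33, KIT, CD34, MPO, SPI1 and RUNX1T1, taken as markers of AML blasts, were all present. They summed to between 6841 and 8346 CPM in controls and between 5096 and 6124 CPM in knockdown libraries. Nearly all of this sum was MPO, which fell from a mean of 7256 to 5413 CPM (edgeR adjusted p = 0.0134, and not called without knockdown replicate 2 or 3). CD34 rose from 2.55 to 4.03 CPM (edgeR adjusted p = 0.0024), and CD33, KIT, SPI1 and RUNX1T1 did not pass. The part of these differences in the changes below was not tested. Markers of T, B, erythroid, fibroblast and epithelial cells, of which 10 of 13 were in the table, summed to under 2 CPM per list in each library. Transcripts of the mitochondrial genome took 12.4% to 15.2% of control counts and 14.7% to 18.8% of knockdown counts, and the part of this in the changes below was not tested.

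Levels of the 10 genes in control cells were first set side by side as RPKM, the deposited values scaled for gene length and library depth. ALKBH5 was the most abundant by this measure at 53.2 ± 2.7 RPKM (SD, n = 3), and the reader YTHDF2 followed at 8.81 ± 0.74 RPKM. IGF2BP2 stood at 6.37 ± 0.61, WTAP at 5.26 ± 0.19 and METTL3 at 3.15 ± 0.50 RPKM. RBM15 at 0.935 ± 0.222, FTO at 0.624 ± 0.076 and VIRMA at 0.583 ± 0.093 RPKM were lower. The lowest were YTHDC1 at 0.324 ± 0.051 RPKM and METTL14 at 0.246 ± 0.059 RPKM. Neighbours in this order did not overlap between their 3 libraries except FTO with VIRMA and YTHDC1 with METTL14. The order in knockdown cells was the same but for 1 exchange: WTAP, at 5.57 ± 0.03 RPKM, stood above IGF2BP2 at 5.37 ± 0.14 RPKM. The order depends on the length used. The gene length in the table ran from 1.03 times that of the longest coding transcript for METTL14 to 1.65 for VIRMA, 1.82 for FTO and 2.93 for METTL3. Scaled to that transcript, mean control levels were 9.22 for METTL3, 8.39 for WTAP and 8.18 for IGF2BP2, so METTL3 would stand above both, and FTO at 1.13 would stand above RBM15 at 1.03.

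METTL3 (ENSG00000165819, GRCh38 chromosome 14, 21498133 to 21511375, minus strand), the methyltransferase itself, fell to 51.2% of its control level. It stood at 21.7, 15.7 and 18.3 CPM in control replicates 1 to 3 and at 9.93, 8.97 and 9.60 CPM after FBL knockdown. The groups were far apart, with every knockdown library well under the lowest control. The log2 fold change was -0.97 ± 0.12 (SE; adjusted p = 0.00024, quasi-likelihood test of edgeR, Benjamini-Hochberg adjustment over 18486 genes), and the call was kept in all 18 alternative settings tried. METTL3 shares 1043 bases with TOX4, a gene on the opposite strand at 74.7 ± 3.2 CPM in controls, whose log2 fold change was -0.29 ± 0.08 (edgeR adjusted p = 0.0174, not called without control replicate 3 or knockdown replicate 2 or 3). The strand setting of the counting is not given in the sources used here, so reads in the shared stretch cannot be told apart. In a bulk sample, fewer cells of a type and less RNA per cell cannot be told apart either.

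METTL14 (ENSG00000145388, chromosome 4, 118685368 to 118715433, plus strand), which has no catalytic activity of its own but is needed for that of METTL3, was counted at 1.84, 1.22 and 1.99 CPM in controls. After knockdown it was at 0.976, 1.40 and 1.00 CPM. Control replicate 2 lay among the knockdown values, so the groups overlapped. The log2 fold change of -0.58 ± 0.22 did not pass (edgeR adjusted p = 0.0612). The gene had only 89 to 201 counts per library, and counting error alone is 10.6% of a count of 89. Without control replicate 2 the adjusted p of edgeR's test was 0.00175 at -0.77, and DESeq2 called it on all libraries (adjusted p = 0.0377).

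Within each library METTL3 was 13.7, 15.0 and 10.7 times as abundant per length as METTL14 in controls, and 11.8, 7.47 and 11.1 times in knockdown libraries. These ranges overlapped. On the log2 scale the ratio was 3.70 ± 0.25 in controls and 3.32 ± 0.36 in the knockdown (SD over 3 libraries). The difference of -0.39 had a p of 0.3 in a 2-sided exact permutation test, in which 0.1 is the lowest value possible with 3 libraries a group. A change in the balance of the 2 core subunits was not detectable in this design. The size of the ratio, though not its difference between groups on the log2 scale, depends on the length used. Scaled to the longest coding transcript, mean control levels were 9.22 for METTL3 and 0.253 for METTL14.

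**Figure D1:**
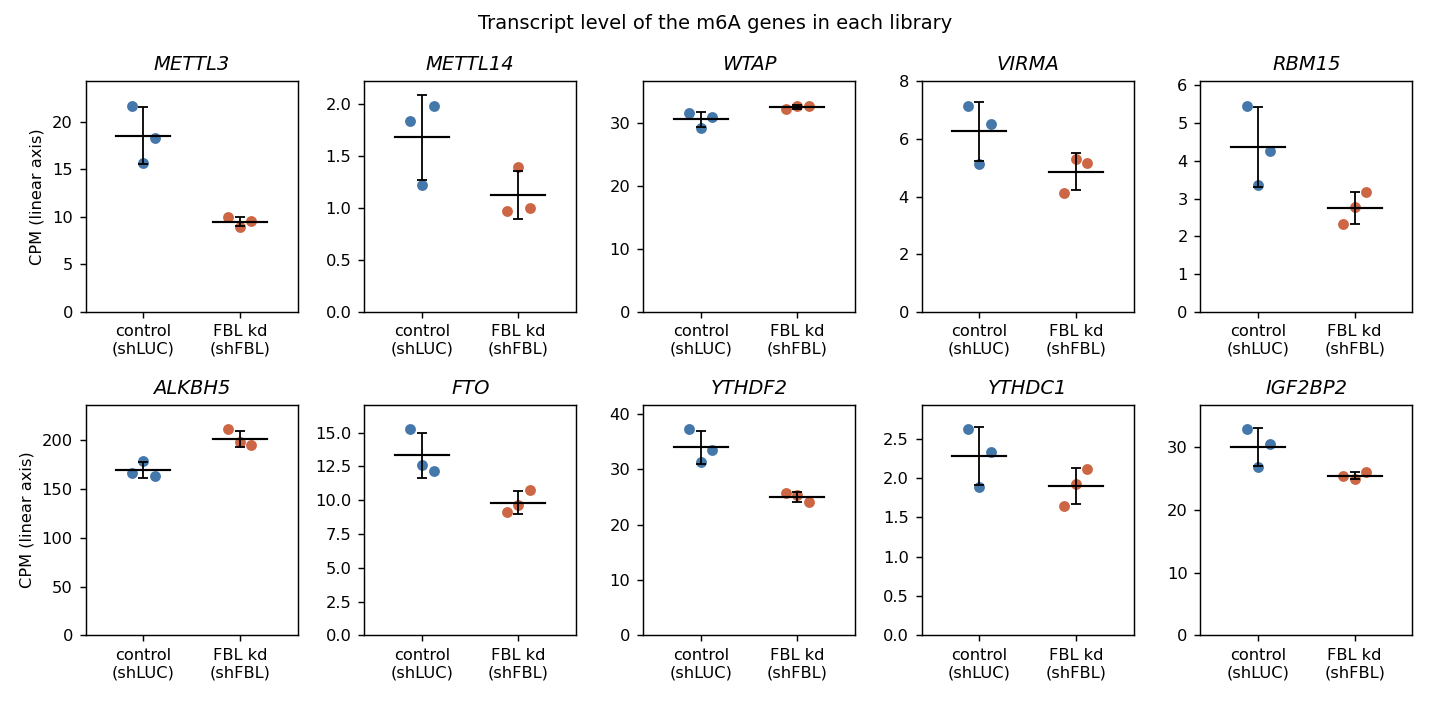
Level of each of the 10 genes in CPM on linear axes that start at 0, with 3 control (blue) and 3 knockdown (orange) libraries per panel as points and the mean ± SD in black. The METTL3 groups lie far apart, at 15.7 to 21.7 CPM against 8.97 to 9.93 CPM, while those of METTL14, VIRMA and YTHDC1 overlap.

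Of the subunits that guide the core pair, RBM15 fell, while WTAP and VIRMA did not pass the test. RBM15 (ENSG00000162775, chromosome 1, 110338506 to 110346681, plus strand) binds RNA and brings the complex to its sites. It was at 5.46, 3.36 and 4.26 CPM in controls and at 2.33, 2.76 and 3.16 CPM after knockdown. The groups were separate, but the lowest control was close to the highest knockdown library. Its log2 fold change was -0.66 ± 0.18 (edgeR adjusted p = 0.0171). The call was lost in 3 of 17 alternative settings, among them the omission of knockdown replicate 1 (adjusted p = 0.0588) or 2 (adjusted p = 0.0698).

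WTAP (ENSG00000146457), the adaptor that keeps METTL3 and METTL14 in nuclear speckles, was the steadiest of the 10. It stood at 31.6, 29.3 and 31.0 CPM in controls and at 32.2, 32.7 and 32.8 CPM in knockdown libraries. These 3 knockdown values lay just above the controls, with a log2 fold change of 0.09 ± 0.08 (edgeR adjusted p = 0.422). WTAP lies opposite SOD2, which was at 22.7 ± 0.9 CPM in controls and was called lower by a narrow margin (-0.24 ± 0.08 on the log2 scale, edgeR adjusted p = 0.0455). That call was lost in 12 of 18 settings, among them the omission of any library other than control replicate 2. VIRMA (ENSG00000164944), the large scaffold of the complex, was at 7.15, 5.14 and 6.51 CPM in controls and at 4.13, 5.29 and 5.18 CPM in the knockdown. Control replicate 2 again lay within the knockdown range, and the change of -0.36 ± 0.15 did not pass (edgeR adjusted p = 0.0788). Without that library it was -0.49 (edgeR adjusted p = 0.00433).

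Another 8 genes encode the remaining subunits of the writer complex or other m6A methyltransferases, and of these 1 rose and 1 fell, with a median log2 fold change of -0.09. That is 2 of 8 called, where 32.8% of all tested genes were. METTL5, which methylates 18S ribosomal RNA, rose from 37.5, 34.6 and 36.8 CPM to 42.4, 55.9 and 51.3 CPM (0.46 ± 0.11, edgeR adjusted p = 0.00736). Its activating partner TRMT112, which also serves other methyltransferases, fell from 325 ± 30.7 to 257 ± 11.7 CPM (SD, n = 3 each; -0.34 ± 0.09, edgeR adjusted p = 0.0154). Leaving out control replicate 3, knockdown replicate 2 or knockdown replicate 3 ended the TRMT112 call (edgeR adjusted p up to 0.0807 over all alternatives). RBM15B, the paralogue of RBM15, was far more abundant at 37.2 ± 1.6 RPKM in controls and was at -0.24 ± 0.09 (edgeR adjusted p = 0.0683), called only with some choices, one of them the omission of knockdown replicate 1 (library scaling by size alone and GC correction were the others). RBM15 was at 0.935 RPKM. ZC3H13 (-0.19 ± 0.19), CBLL1 (-0.10 ± 0.10) and METTL16 (0.20 ± 0.10) did not pass either, though ZC3H13 was called without control replicate 2 and METTL16 with a GC correction.

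The erasers did not move together: FTO fell and ALKBH5 rose. FTO (ENSG00000140718, chromosome 16, 53701692 to 54158512, plus strand), which also demethylates the cap-adjacent nucleotide of messenger RNA, was at 15.2, 12.6 and 12.2 CPM in controls and at 9.09, 9.61 and 10.8 CPM in the knockdown. No knockdown library reached the lowest control. The log2 fold change was -0.44 ± 0.11 (edgeR adjusted p = 0.0135), and without knockdown replicate 2 the adjusted p was 0.0623. ALKBH5 (ENSG00000091542, chromosome 17, 18183078 to 18209954, plus strand), a nuclear demethylase, was at 166, 179 and 163 CPM in controls and at 211, 198 and 195 CPM in the knockdown. All 3 knockdown libraries lay above the controls, by a modest distance. Its log2 fold change was 0.25 ± 0.08 (edgeR adjusted p = 0.0333). This call is the weakest of the 10 genes: omission of any library but control replicate 2 ended it, and so did 2 other settings, with adjusted p-values up to 0.154 and log2 fold changes between 0.21 and 0.32 throughout.

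**Figure D2:**
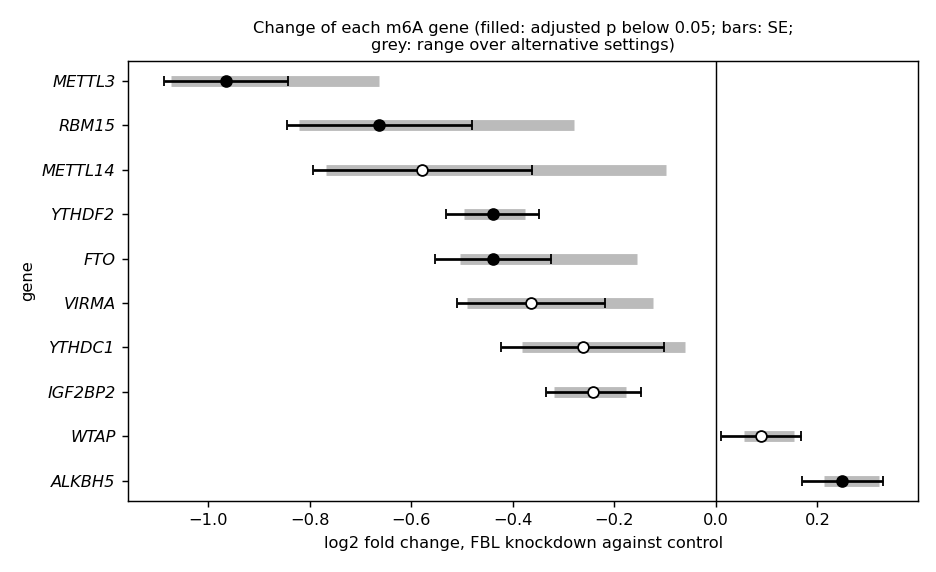
Log2 fold change of the 10 genes, knockdown against control (points, with SE as bars; filled where edgeR's adjusted p was below 0.05), over the range of values in the alternative settings (grey). METTL3 lies lowest at -0.97, and ALKBH5 at 0.25 is the filled point above 0; no grey range crosses 0.

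Among the readers, YTHDF2 fell, and YTHDC1 and IGF2BP2 did not pass. YTHDF2 (ENSG00000198492, chromosome 1, 28736621 to 28769775, plus strand), which recruits the CCR4-NOT deadenylase to marked transcripts, was at 37.2, 31.3 and 33.4 CPM in controls. It was at 25.7, 25.3 and 24.0 CPM in the knockdown libraries, clearly below them all. The log2 fold change was -0.44 ± 0.09 (edgeR adjusted p = 0.00405), and the call was kept in all 18 alternative settings.

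YTHDF1 and YTHDF3, close paralogues of YTHDF2, did not pass, at 0.04 ± 0.09 and -0.22 ± 0.14 (edgeR adjusted p = 0.751 and 0.256), though YTHDF3 was called without control replicate 2 or with the GC correction described below. Of the summed RPKM of the 3 paralogues YTHDF2 made up 31.5%, 28.6% and 30.7% in controls and 23.9%, 23.5% and 24.7% in knockdown libraries. The groups did not overlap. The means differed by -6.25 percentage points (p = 0.1 in the 2-sided exact permutation test, its lowest possible value here). YTHDF1 was the most abundant of the family, at 18.6 ± 0.7 RPKM in controls, and YTHDF3 was at 1.66 ± 0.31 RPKM. Reads that fit more than 1 paralogue may be split in a way the sources used here do not state.

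YTHDC1 (ENSG00000083896), the nuclear reader linked to splicing and export, was at 2.62, 1.88 and 2.32 CPM in controls and at 1.65, 1.93 and 2.11 CPM in the knockdown. The groups overlapped, and at -0.26 ± 0.16 it did not pass (edgeR adjusted p = 0.237). With 152 to 244 counts per library it is, after METTL14, the thinnest measured of the 10 genes. YTHDC2, a helicase of the same domain family known for its part in meiosis, was at 0.04 ± 0.22 (edgeR adjusted p = 0.913), a sign that turned without control replicate 2 or knockdown replicate 2.

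IGF2BP2 (ENSG00000073792) was at 32.9, 26.9 and 30.6 CPM in controls and at 25.4, 24.98 and 26.0 CPM in knockdown libraries. The knockdown values lay below the controls, yet close to control replicate 2. The log2 fold change was -0.24 ± 0.09 (edgeR adjusted p = 0.0703, and 0.0124 at -0.32 without control replicate 2). IGF2BP2 was the main member of its family here, with 95.6% ± 1.2 of the summed RPKM of IGF2BP1, IGF2BP2 and IGF2BP3 in controls and 95.7% ± 0.3 in knockdown cells (SD over 3 libraries; p = 0.9, exact permutation, 2-sided). IGF2BP1 had 0 to 3 counts per library and was not tested, and IGF2BP3 was at -0.31 ± 0.23 (edgeR adjusted p = 0.337, called without control replicate 2).

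In all, 4 of the 10 genes were called lower, where 17.0% of all tested genes were, and 1 was called higher, where 15.8% were. That is 5 of 10 against 32.8% of genes called in either direction. All 10 passed the filter on low counts. The groups did not overlap for 7 of the 10 genes, against 45.2% of all tested genes. The median log2 fold change was -0.40 over the 10 genes and -0.01 over all tested genes, and 8 of the 10 values were below 0. The shares of calls differed with abundance: from 10 to 100 CPM, where METTL3, WTAP, FTO, YTHDF2 and IGF2BP2 lie, 27.7% of genes were called lower and 17.0% higher. From 1 to 10 CPM, where METTL14, VIRMA, RBM15 and YTHDC1 lie, the shares were 14.3% and 17.3%, and at 100 CPM or more, where ALKBH5 lies, 27.8% and 13.6%. Under upper-quartile scaling the split of all calls was 3597 higher and 2528 lower in place of 2920 and 3141, yet the same number of members was called, 1 higher and 4 lower.

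**Figure D3:**
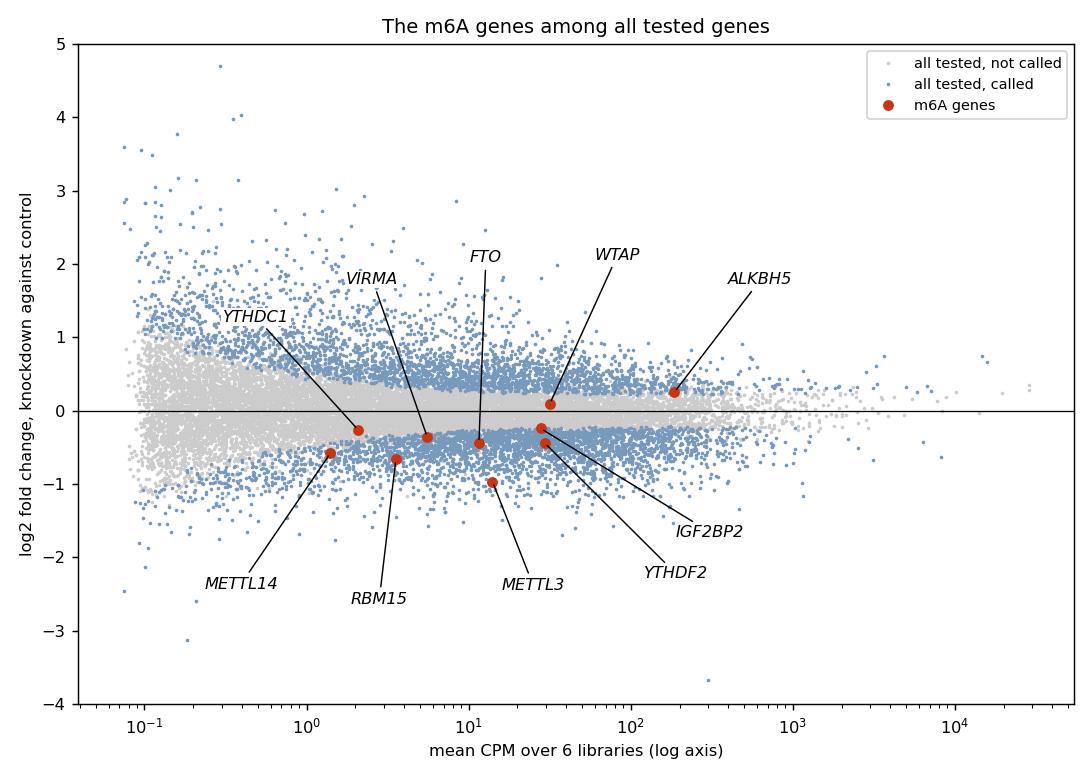
Log2 fold change against mean CPM (log axis) for the 18486 tested genes, called (blue) or not called (grey) by edgeR, with the 10 m6A genes in red. METTL3 is the lowest red point at -0.97 and ALKBH5 the highest at 0.25.

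Libraries differed in how they recovered transcripts of low or high GC content, and the part of this in the values of the 10 genes was not tested. Genes near 38.4% GC, the GC content of the METTL14 transcript, had a median deviation from their own mean over the 6 libraries (log2(CPM + 0.5), genes with a mean of at least 1 CPM) of -0.19 in control replicate 2 and 0.12 in control replicate 1. At 66.2% GC the same libraries were at 0.31 and -0.30. METTL14 (38.4% GC), YTHDC1 (40.3%) and VIRMA (40.7%), the 3 members whose groups overlapped, are also the 3 with the lowest GC content. The other 7 lie between 44.2% for WTAP and 54.9% for ALKBH5. With a correction for GC content in each library, chosen after the data were seen, METTL14 (edgeR adjusted p = 0.0108) and VIRMA (edgeR adjusted p = 0.00712) were called lower beside METTL3, RBM15, FTO and YTHDF2, and ALKBH5 was called higher. That fit called 8490 of 18439 genes (4500 higher, 3990 lower), against 6061 of 18486 without the correction, so these 7 calls stand beside a larger background. With it METTL14 stayed at a log2 fold change of -0.58, and VIRMA was at -0.35. YTHDC1 and IGF2BP2 still missed the threshold (edgeR adjusted p = 0.101 and 0.0501).

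**Figure D4:**
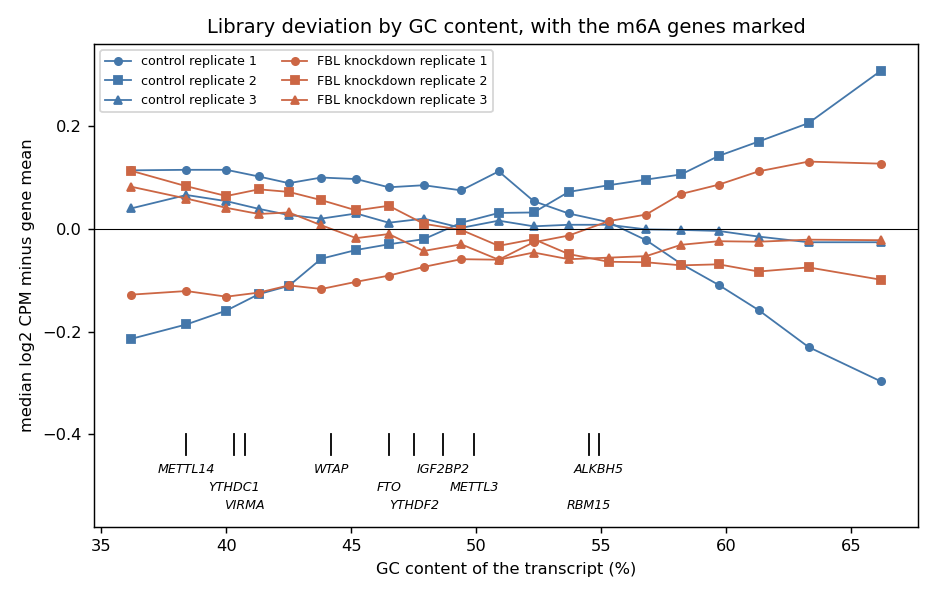
Median of log2(CPM + 0.5) minus each gene's mean over the 6 libraries, in 20 bins of transcript GC content, with 1 line per library (blue control, orange knockdown) and the GC content of the 10 genes marked below. Control replicate 2 runs from -0.21 at the lowest to 0.31 at the highest GC content and control replicate 1 the opposite way, from 0.11 to -0.30.

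Further genes of the pathway were taken from lists written from general knowledge, with earlier results of these data known. The shares given for these lists are therefore descriptions and not an independent test. Of 9 other proteins reported to bind m6A or m6A-dependent structures, 7 fell and 0 rose, with a median of -0.56. This is 77.8% called, where 32.8% of all tested genes were, 17.0% of them lower, and 27.7% were lower at 10 to 100 CPM (8 of the 9 at an unadjusted p under 0.05 and 8 called by DESeq2; all 9 values were below 0). HNRNPA2B1, a nuclear RNA-binding protein that acts in splicing and microRNA processing, fell from 90.3 ± 14.1 to 47.9 ± 1.8 CPM (SD, n = 3 each; -0.91 ± 0.11). The stress granule protein G3BP1 (-0.74 ± 0.12), the splicing regulator HNRNPC (-0.70 ± 0.09) and the initiation factor EIF3A (-0.63 ± 0.17) fell as well, with edgeR adjusted p-values from 0.000187 to 0.0176. The EIF3A call was lost in 7 of 18 settings, including the omission of control replicate 3 or of any knockdown library.

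Partners through which the readers act were mixed. Among 13 genes, 5 were called lower and 2 higher (53.8%, against 32.8% of all tested genes, with 17.0% lower and 15.8% higher), and the median was -0.16. SAFB, a nuclear matrix protein, fell from 22.5 ± 5.5 to 9.12 ± 1.10 CPM (SD, n = 3 each; -1.30 ± 0.16). The export receptor NXF1, through which YTHDC1 is linked to export, was at -0.83 ± 0.09, POP1, a subunit of the RNase P and MRP enzymes that act with YTHDF2, at -0.82 ± 0.14, and the decay helicase UPF1 at -0.70 ± 0.09. For these 4 genes the adjusted p of edgeR's test ran from 0.000115 to 0.00126. The deadenylase subunit CNOT1, which YTHDF2 contacts, did not pass at -0.18 ± 0.08. Subunits of this deadenylase did not share a direction, and CNOT8 was called lower (-0.45 ± 0.09, edgeR adjusted p = 0.0038). The 2 partners called higher were CNOT7, a catalytic subunit of the same deadenylase (0.46 ± 0.10, edgeR adjusted p = 0.00489), and PABPC1, the cytoplasmic poly(A)-binding protein (0.27 ± 0.09, edgeR adjusted p = 0.0454). The PABPC1 call was lost in 10 of 18 settings, among them the omission of any library other than control replicate 1.

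Genes that supply or recycle S-adenosylmethionine (SAM), the methyl donor of METTL3 and of fibrillarin alike, made up the next list. Among 8 tested genes, 6 were called lower and 0 higher (where 17.0% of all tested genes were lower and 15.8% higher), and the median was -0.46 (all 8 values below 0, 6 at an unadjusted p under 0.05, 5 called by DESeq2 and 4 by limma voom). MAT2A, the SAM synthetase, fell from 86.5, 72.0 and 78.6 CPM to 48.3, 49.9 and 52.2 CPM (-0.66 ± 0.09, edgeR adjusted p = 0.000377), with a wide gap between the groups. AHCY, which removes the inhibitory by-product of methylation, was at -0.43 ± 0.09 (edgeR adjusted p = 0.00311). The methionine synthase MTR (-0.55 ± 0.19, edgeR adjusted p = 0.0406) and the salvage enzyme MTAP (-0.49 ± 0.17, edgeR adjusted p = 0.0493) were called by a narrow margin, MTR with overlapping groups, and lost the call in 9 and 12 of 17 settings. Omission of control replicate 1 or 3 or of knockdown replicate 1 or 2 ended both calls, and omission of knockdown replicate 3 ended that of MTAP. GNMT was also called lower by a narrow margin (-0.78 ± 0.27, edgeR adjusted p = 0.0487), with only 15 to 42 counts per library.

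Transcripts reported in AML as regulated through m6A did not share a direction: of 15 tested, 5 fell and 1 rose, with a median of -0.21. That is 6 of 15 called, near the share of 32.8% over all tested genes. PFKP, a phosphofructokinase reported downstream of FTO, fell from 121 ± 3.3 to 69.3 ± 6.6 CPM (SD, n = 3 each; -0.81 ± 0.09). TACC3, a mitotic spindle protein reported downstream of ALKBH5, was at -0.67 ± 0.08, and GPT2, an aminotransferase reported downstream of IGF2BP2, at -0.37 ± 0.09. Their adjusted p-values by edgeR were 0.000117, 0.000191 and 0.00802, and without knockdown replicate 3 that of GPT2 was 0.0661. TNFRSF1B, a tumour necrosis factor receptor whose transcript is reported to be bound by YTHDF2, rose from 16.0, 18.4 and 15.9 CPM to 25.2, 24.0 and 23.0 CPM (0.52 ± 0.09, edgeR adjusted p = 0.00185). MYC was called lower at -0.27 ± 0.09 (edgeR adjusted p = 0.0426), but 13 of 18 settings lost this call, among them the omission of any library other than control replicate 1. MYB (-0.18 ± 0.11) and BCL2 (-0.21 ± 0.12), described as targets of METTL3 or METTL14, did not pass (edgeR adjusted p = 0.251 and 0.222), though MYB was called without control replicate 2. The counts measure transcript levels, and m6A itself was not analysed here.

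**Figure D5:**
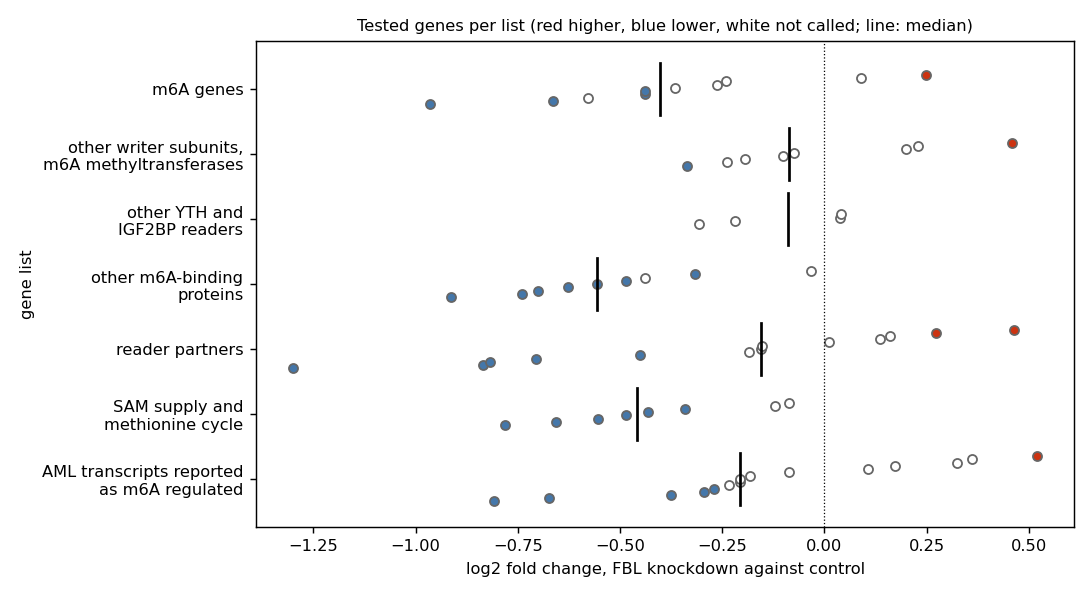
Log2 fold change of every tested gene in the 10 m6A genes and 6 companion lists (red called higher, blue called lower, white not called by edgeR), with the median of each list as a black line. The medians run from -0.56 for the other m6A-binding proteins to -0.09 for the other writer subunits and for the other YTH and IGF2BP readers. Of those other readers 0 of 4 tested were called by edgeR (0 at an unadjusted p under 0.05, 0 by DESeq2), where 32.8% of all tested genes were. A list of 4 genes is too small to set against that share.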

How the data were processed

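Total RNA of 6 Kasumi-1 samples was sequenced from NEBNext Ultra libraries, per the labels. The authors deposited whole-number counts per Ensembl gene, with gene lengths, and a table of RPKM values. Reads were processed with cutadapt 1.18, HISAT2 and featureCounts against GRCh38, and edgeR was used, per the submitters' processing notes. Neither strand setting nor annotation release is given in the sources used here. All 191796 deposited RPKM values were recomputed from the counts within a relative tolerance of 1e-06, using TMM library scaling.

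Counts were filtered with filterByExpr (minimum count 10, minimum total 15), which left 18486 of 31966 genes, scaled by TMM and compared with the quasi-likelihood test of edgeR 4.0.16 (R 4.3.3) on group alone. Calls have a Benjamini-Hochberg adjusted p under 0.05 over all tested genes. SEs were derived from the F statistic. Exact permutation tests used scipy 1.17.1. Total counts of 85556322 to 103148412 set the depth, and counting error is 10.6% at the smallest count of a member, 89.

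Positions and transcript GC content came from GENCODE 29 on GRCh38, matched for 31848 genes. Promoters matched 9 of the 10 symbols in the RefSeq table. The members and lists were chosen with earlier results of these data known. Named genes are the 10 members, their paralogues, MYC, MYB, BCL2 and up to 4 called members per list. Those taken per list had the largest change at a mean of at least 1 CPM. A few unnamed by this rule (TOX4, SOD2, ZC3H13, CBLL1, METTL16, CNOT1, CNOT7, CNOT8, PABPC1, GNMT, MPO and CD34) were added after their values were seen. Alternatives were other scalings, filters, DESeq2 1.42.0, limma 3.58.1 (voom, and trend on log2(RPKM + 1) and log2(RPKM + 0.1), which understates changes of low genes), a replicate block and the omission of each library. The GC correction and the legacy dispersion of edgeR were added after the data were seen.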

Additional observations from a re-analysis of the deposited data

How the results depend on the processing

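METTL3 and YTHDF2 kept their calls in all 18 alternatives and FBL did too. The number of genes called, 6061, ranged from 3923 to 6943 when 1 library was left out, with 3923 without FBL knockdown replicate 2 and 4017 without FBL knockdown replicate 3. Of the 10 m6A genes, the number called lower (4) ranged from 2 without knockdown replicate 2 to 7 without control replicate 2, and the number called higher (1) from 0 to 1. Of all genes, 2062 of 18724 were called lower without knockdown replicate 2 and 3645 of 18829 without control replicate 2. Without a filter on low counts edgeR called 0 of the m6A genes higher (1 at an unadjusted p under 0.05), beside 2698 of all 31966 genes. Same-numbered libraries did not deviate together (correlations of -0.46, -0.38 and 0.13). These deviations also hold the GC differences between libraries, so they cannot decide if same-numbered samples were grown or handled together. With the replicate number as a block 3833 genes were called, and of the m6A genes 0 higher and 2 lower by edgeR (1 and 4 at an unadjusted p under 0.05). The cause of these shifts was not tested. YTHDC2, at 0.04, was at -0.18 without control replicate 2 and at -0.09 without knockdown replicate 2, with 0.19 the highest value when 1 library was left out. The share of IGF2BP2 in its family differed by 0.12 percentage points and by -0.29 to 0.78 with 1 library left out, negative without control replicate 1 (-0.14) or 3 (-0.29). DESeq2 called 5 members lower and 1 higher, beside 3063 lower and 2986 higher of all 18486 genes. By limma voom 4 members were lower and 1 higher, beside 3069 and 2890 of all genes. The stricter filter left out METTL14, RBM15 and YTHDC1 and called 3 lower and 1 higher of the 7 members left. It called 4059 of all 9186 genes left, a larger share than 6061 of 18486 (2133 lower, 1926 higher). The smallest counts of the 10 genes were 89 for METTL14 and 152 for YTHDC1.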
